A study of Xenopus laevis with 9 samples.

Results

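Forkhead transcription factors other than the Foxi genes and foxd3 were followed through 9 RNA-seq libraries of Xenopus laevis explants. Members were chosen by name alone, as every annotated gene whose symbol was fox, then a letter, then a digit, leaving out 8 foxi genes and 3 foxd3 genes. This gave 77 of the 51061 genes in the count tables, carrying 41 symbols once the ending for the L or S subgenome of this allotetraploid frog was removed. All embryos were of wild-type genotype, and the explants came from the animal pole of the blastula, a tissue still able to form every embryonic lineage. There were 3 libraries each of stage 9 explants with no treatment listed (St9 wild type), of stage 9 explants carrying soxb1 morpholinos that block translation of sox2 and sox3 (St9 soxb1 morphant), and of explants at stage 11.5 brought towards a neural plate border fate (St11.5 NPB), labelled as given Wnt8a and Chordin mRNA. Each library was made from pooled explants, and no library of embryos given a control morpholino was among the 9. The p-values below measure only the spread between these libraries.

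Forkhead factors share a winged-helix DNA-binding domain, and several of them can bind their sites in closed chromatin and open it for other factors. In the early frog embryo Foxh1 carries Nodal signals to DNA together with Smad proteins, Foxd4l1 keeps newly specified neural ectoderm in an immature state, Foxb1 marks early neural ectoderm, Foxa factors act in endoderm and the dorsal midline, and Foxj1 switches on the genes of motile cilia. Foxm1, Foxo, Foxk, Foxn and Foxp factors act more broadly, in the cell cycle, in metabolism and as repressors.

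Library totals were between 25796466 and 48839143 counts, so that 3 counts, the floor used here, stood for 0.0614 to 0.116 CPM (counts scaled to a common library size). The floor covers counting error only. The morpholinos act on translation, so the target transcripts do not check the labels. The sox2 and sox3 genes summed to 577 to 957 CPM in the wild-type libraries and to 1050 to 1460 CPM in the morphants. Of 15 neural plate border marker genes, 14 passed as higher in NPB than in St9 wild type and 0 as lower, and their summed level was 1667 to 2901 CPM in NPB against 336 to 395 CPM in wild type. The wnt8a.L transcript stood at 291, 546 and 293 CPM and chrd.1.S at 2458, 13320 and 2957 CPM in the 3 NPB libraries. The 9 mesoderm markers summed to 1.36, 2.45 and 1.95 CPM in wild type, 5.74, 6.06 and 7.23 in morphants and 0.895, 1.27 and 22.8 in NPB. Their wild-type and morphant sums did not overlap, all 3 that were tested at stage 9 (myod1.L, myod1.S and tbxt.S) were higher in morphants with the replicate number as a block and 0 without it (edgeR), and myf5.S, meox2.L and meox2.S were at 0 in all 6 stage 9 libraries. The 12 endoderm markers summed to 137 to 245 CPM in wild type and 262 to 351 in morphants, with 6 of 8 tested higher in the same paired fit and 0 without the block. Without the block 3 markers of each list were at an unadjusted p under 0.05, DESeq2 called 1 mesoderm and 2 endoderm markers, and limma-voom called 0. The part of these markers in the morphant results below was not tested. NPB replicate 1 correlated less with the other NPB libraries (0.953 and 0.945 for log2 CPM across genes) than these did with each other (0.964), while wild-type libraries correlated at 0.941 to 0.945.

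Of the 77 forkhead genes, 38 had enough counts to be tested in both comparisons, 3 only in morphant against wild type, 3 only in NPB against wild type, and 33 in neither. The tested genes covered 28 symbols. A gene that entered a test only through the group in which it was high had to differ, so the tested genes do not stand for all 77. Fewer than 3 counts in each library of the group were found for 22 members in wild type, 19 in morphants and 23 in NPB. These were mostly genes known from later tissues, such as foxe3 of the lens, foxl1 of the gut mesenchyme and foxp3 of regulatory T cells in mammals. The copies foxl1.S and foxp3.L, and 1 of the pair of loci named foxj2.L and of the pair named foxr1.L, had 0 counts in all 9 libraries. No untested member exceeded 99 counts, the value of foxa2.L, an endoderm and floor plate factor, in NPB replicate 1. Levels below are CPM scaled by TMM over the 9 libraries (scaled CPM), which compare libraries for a gene but not genes with each other.

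The morphants were set against St9 wild type to ask how blastula explants respond to a loss of SoxB1 proteins. Transcripts of the neural ectoderm genes foxb1.L, foxd4l1.1 and foxd4l1.2.L were lower in all 3 morphant libraries than in their wild-type partners, and those of the cilia genes foxj1.S and foxj1.2.S were higher. edgeR's quasi-likelihood test without a block called 0 of the 41 members at an adjusted p of 0.05 (Benjamini-Hochberg over all genes), against 0% of all genes tested. At an unadjusted p under 0.05 there were 9 members, against 5.72% of all genes, DESeq2 called 4 members (foxb1.L, foxd4l1.1.S and foxd4l1.1.L lower, foxj1.2.S higher) against 2.02% of all genes, and limma-voom called 0. At stage 9 the libraries that share a replicate number resembled each other, and with the replicate number as a block (the paired fit) 3 members were called higher and 5 lower. That was 19.5% of the 41, beside 12.5% of all genes (5.75% higher, 6.71% lower). Of the called members, foxb1.L and foxa1.S entered the test only through wild type and foxj1.2.S only through the morphants. These were the groups where they were high, so they had to differ and their number is not read as a result. Without overlap between the groups were 4 members higher and 5 lower in morphants, beside 4.82% and 5.36% of all genes. The median log2 fold change in the paired fit was -0.005 over the members and 0.005 over all genes tested. Adjusted p values given for single members are from edgeR unless another tool is named. In bulk explants, fewer cells of a type and less RNA per cell cannot be told apart.

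foxb1.L and 3 foxd4l1 genes made up 4 of the 5 falls. For foxb1.L, scaled CPM were 6.78, 1.87 and 0.874 in the wild-type libraries and 0.37, 0.052 and 0.0283 in the morphants, from 13, 2 and 1 morphant counts. Every morphant library was below every wild-type library, although wild-type replicate 1 alone held most of the wild-type counts (201, against 63 and 32). The log2 fold change was -4.42 (SE 0.34, adjusted p = 5.07e-07) in the paired fit, 21.4-fold lower, and -4.37 (adjusted p = 0.377) without the block. Its homeolog foxb1.S, with 26, 5 and 4 wild-type counts and 0, 2 and 2 morphant counts, was below the filter and was not tested.

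The foxd4l1 genes, which in Xenopus hold neural ectoderm in an immature state, were also lower in morphants. For foxd4l1.1.S the values were 24.6, 14.9 and 11 scaled CPM in wild type and 4.75, 5.17 and 1.59 in morphants. For foxd4l1.1.L they were 51.22, 24.16 and 44.48 against 23.05, 12.37 and 11.75, and for foxd4l1.2.L 19.5, 6.25 and 7.54 against 5.51, 2.89 and 1.33. The groups did not overlap for any of the 3 genes, although the gap was narrow for foxd4l1.1.L and foxd4l1.2.L. In the paired fit foxd4l1.1.S fell by 2.16 on the log2 scale (SE 0.21, adjusted p = 0.000384), foxd4l1.2.L by 1.77 (SE 0.22, adjusted p = 0.00064) and foxd4l1.1.L by 1.34 (SE 0.19, adjusted p = 0.00658). Without the block the adjusted p values were 0.313, 0.69 and 0.409. These copies are close in sequence, so reads could have been divided between them, and the further gene foxd4l1.L had at most 3 counts in any stage 9 library.

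The cilia genes moved the other way. For foxj1.S, scaled CPM were 3.91, 3.67 and 0.901 in wild type and 13.1, 13.3 and 5.12 in morphants, with no overlap, and the rise in the paired fit was 1.96 (SE 0.155, adjusted p = 7.76e-07), 3.9-fold. The value in the morphant replicate 3 library was the lowest of its group, as was the wild-type partner. For foxj1.L the values were 9.21, 5.95 and 1.75 against 11.3, 9.62 and 4.36, which overlapped between groups but were higher in 3 of 3 pairs (0.70, SE 0.165, adjusted p = 0.0125, lost at 0.125 without the replicate 2 pair). The related foxj1.2.S rose from 5, 8 and 8 counts in wild type to 39, 27 and 63 counts (2.46, SE 0.395, adjusted p = 0.000586), while foxj1.2.L stood at 0.945, 1.48 and 2.95 scaled CPM against 2.42, 3.15 and 3.03 (0.75, SE 0.25, adjusted p = 0.0681). foxj1.2.S entered the test only through the morphants, where it was high, so it had to differ. Without the block none of the 4 genes passed in edgeR (adjusted p between 0.221 and 1), while DESeq2 called foxj1.2.S higher (adjusted p = 0.0268).

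**Figure D1:**
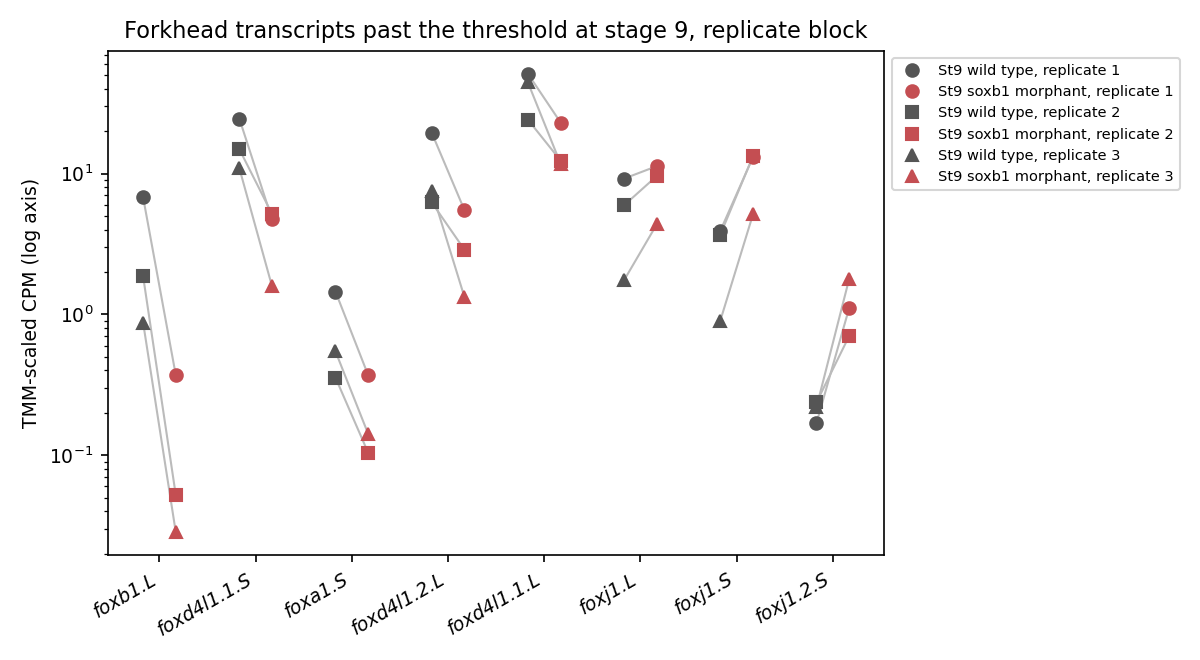
TMM-scaled CPM (log axis) of the 8 forkhead transcripts past the threshold at stage 9 with the replicate number as a block, for each St9 wild-type library (grey) and soxb1 morphant library (red), with lines joining libraries of the same replicate number. All 3 lines fall for the 5 transcripts on the left, from foxb1.L to foxd4l1.1.L, and rise for foxj1.L, foxj1.S and foxj1.2.S.

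Among the Foxa genes, which open chromatin in endoderm and axial mesoderm, the homeologs of foxa1 stood on opposite sides. foxa1.S had 43, 12 and 20 counts in wild type and 13, 4 and 5 in morphants, lower in 3 of 3 pairs but overlapping between groups. It was called lower in the paired fit (-1.90, SE 0.41, adjusted p = 0.00572). That call was lost with DESeq2 under the same replicate block (0.0675) and in edgeR without the replicate 1 pair (0.0943). foxa1.L, with 18, 21 and 39 counts against 30, 33 and 89, was higher in 3 of 3 pairs and did not pass (0.80, SE 0.28, adjusted p = 0.0829). foxa4.L, a gene of the dorsal midline, had between 5 and 23 counts in every stage 9 library and did not pass.

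The other forkhead transcripts of wild-type explants differed little between the groups. Foxh1, the DNA-binding partner of Smad2 and Smad3, was read from foxh1.L at 85.2, 65.3 and 107 scaled CPM in wild type and 84.4, 87.8 and 109 in morphants, and from foxh1.S at 54.7, 51.4 and 36.9 against 53, 55 and 36.1. foxh1.2.L stood at 37.7, 43.4 and 88.1 against 29.3, 38.8 and 76.8, lower in 3 of 3 pairs. Neither of the first 2 passed in the paired fit, and foxh1.2.L missed the threshold there (-0.24, SE 0.08, adjusted p = 0.0586, and 0.0322 when every gene with at least 1 count was tested).

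Foxm1, an activator of mitotic genes, stood at 29.2, 46.9 and 48.3 scaled CPM in wild type and 26.7, 52.8 and 43.8 in morphants for foxm1.S. The insulin-responsive factor foxo3.L stood at 15.4, 19.9 and 21 against 18.6, 22.5 and 24.2, and foxk2.L at 22.1, 18.7 and 27.5 against 18.8, 21.6 and 25.7. In all 3 genes the groups overlapped and the paired log2 fold changes were between -0.04 and 0.22. foxn3.L, a repressor, stood at 25.2, 26.3 and 25.7 against 24, 28.4 and 24, and foxn2.S at 16, 25 and 28.3 against 15.1, 27.1 and 26.8. foxr1.L (the locus gene37911) stood at 67, 57.9 and 38.6 against 66.4, 46.4 and 38.8. For these, paired log2 fold changes were -0.015, -0.01 and -0.11. The groups also did not overlap for foxn4.L (0.74, SE 0.34, adjusted p = 0.191) and foxc2.S (-1.15, SE 0.48, adjusted p = 0.144), which were not called in the paired fit. Of these, foxc2.S entered the test only through wild type, where it was high.

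The comparison of NPB explants with St9 wild type covered the passage from blastula to a neural plate border state. Stage, injected mRNA and count table changed together and cannot be told apart, and the wild-type libraries are the same as in the morphant comparison. Transcripts of foxb1.L, foxb1.S, foxb2.S, foxd1.L and foxp4.S were higher in NPB, and foxh1, foxr1.L and the foxp1 homeologs were lower. Of the 41 members tested with edgeR, 8 were higher and 12 lower at an adjusted p of 0.05, together 48.8%, beside 53.7% of all genes (26.9% higher, 26.7% lower). Without NPB replicate 1 the counts were 10 higher and 9 lower, and without wild-type replicate 2, 11 and 8. The groups did not overlap for 8 members that were higher and 14 that were lower, beside 31.5% and 32.5% of all genes. The median log2 fold change was -0.24 over the members and -0.04 over all genes tested. With library totals alone in place of TMM scaling the median of all genes moved to -0.72 and that of the members to -0.94. The calls were then 7 higher and 18 lower, so directions here are relative to the TMM scaling. No share of all genes was set beside these calls or those with a library left out. Their numbers are therefore not read as results about the members.

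The foxb genes and foxd1.L are described first. Of these, foxb1.S, foxb2.S and foxd1.L entered the test only through the NPB libraries, where they were high, so they had to differ and their number is not read as a result. For foxb1.L, scaled CPM were 6.78, 1.87 and 0.874 in wild type and 40.6, 91.6 and 91.2 in NPB, and for foxb1.S 0.877, 0.148 and 0.109 against 9.47, 90.1 and 85.9. Every NPB library was above every wild-type library, with NPB replicate 1 the lowest of its group. The log2 fold changes were 4.57 for foxb1.L (SE 0.78, adjusted p = 0.00209) and 7.41 for foxb1.S (SE 1.16, adjusted p = 0.00143). foxb2.S, its paralog, had 0 counts in each wild-type library and 23, 170 and 654 counts in NPB (adjusted p = 0.00462). Set against a floor of 3 counts per wild-type library, it was at least 95.6-fold higher on average. That bound was 10.4-fold in NPB replicate 1, 83.9-fold in replicate 2 and 192-fold in replicate 3, and 47.2-fold without replicate 3. foxd1.L, a forebrain gene, had 6, 1 and 2 counts in wild type and 25, 56 and 17 in NPB (3.77, SE 0.93, adjusted p = 0.00925).

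The 3 foxd4l1 genes tested did not pass in NPB, and their libraries spread widely. The further gene foxd4l1.L was below the filter and was not tested. It had 0, 1 and 0 counts in wild type and 5, 26 and 76 in NPB, without overlap between the groups. foxd4l1.1.S stood at 5.17, 69.5 and 57.8 scaled CPM in NPB, foxd4l1.1.L at 0.584, 31.8 and 28.7, and foxd4l1.2.L at 0.751, 9.53 and 20.5, each beside the wild-type values given above. NPB replicate 1 was the lowest library of its group for all 3 genes, below the lowest wild-type library. The log2 fold changes were 1.40 (SE 0.80, adjusted p = 0.177), -0.96 (SE 1.01, adjusted p = 0.455) and -0.10 (SE 0.95, adjusted p = 0.938). Without NPB replicate 1, foxd4l1.1.S was called higher (1.92, adjusted p = 0.00383 with edgeR). In that library the summed placode markers stood at 38.4 CPM against 6.47 and 8.19 in the other NPB libraries, the epidermis markers at 843 against 358 and 355, the neural markers at 251 against 176 and 101, and the animal pole markers at 1708 against 2856 and 3144. The part of these in the spread of foxd4l1 was not tested. foxa2.L went the other way, with 99, 31 and 5 counts in NPB replicates 1 to 3.

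Foxp4, a repressor of the Foxp subfamily, was read from foxp4.S alone, at 1.65, 1.39 and 1.99 scaled CPM in wild type and 89.9, 26.5 and 30.6 in NPB, 28.8-fold higher (4.85, SE 0.54, adjusted p = 0.000247). NPB replicate 1 was here the highest library. Its relative foxp1 was lower in NPB from both copies, with foxp1.L at 10.8, 9.09 and 8.11 against 0.834, 2.33 and 2.63 (-2.26, SE 0.46, adjusted p = 0.0038). For foxp1.S the values were 3.61, 6.63 and 4.18 against 0.96, 2.24 and 1.9 (-1.50, SE 0.47, adjusted p = 0.0258). The groups did not overlap for any of the 3 genes, and the call of foxp1.S was lost without NPB replicate 1 (0.0533), NPB replicate 3 (0.0537) or wild-type replicate 2 (0.0954).

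The Nodal partner Foxh1 fell further than any other tested member. foxh1.2.L went from 37.7, 43.4 and 88.1 scaled CPM in wild type to 1, 1.19 and 1.69 in NPB, 43.3-fold lower (-5.44, SE 0.44, adjusted p = 6.7e-05). foxh1.L stood at 2.96, 4.78 and 5.36 in NPB, 19.6-fold lower (-4.29, SE 0.32, adjusted p = 5.39e-05), and foxh1.S at 0.459, 3.69 and 4.07 (-4.10, SE 0.69, adjusted p = 0.00196). In each gene the highest NPB library was far below the lowest wild-type library. With 11 counts in NPB replicate 1, foxh1.S passed the count filter only through wild type, where it was high, so it had to differ. foxr1.L (gene37911) was lower as well, from 67, 57.9 and 38.6 to 2.25, 3.38 and 5.15 (-3.91, SE 0.38, adjusted p = 0.000133).

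Foxo factors, which act when insulin and Akt signalling is low, divided by gene. foxo4.L was higher, at 7.02, 6.81 and 7.92 scaled CPM in wild type and 26.8, 21.7 and 14.7 in NPB (1.53, SE 0.29, adjusted p = 0.00257). foxo1.S was lower, at 1.38, 1.87 and 2.32 against 0.334, 0.307 and 0.348 (-2.48, SE 0.49, adjusted p = 0.00329), and so was foxo6.S, at 3.17, 3.73 and 1.39 against 0.334, 0.0878 and 0.831 (-2.68, SE 0.77, adjusted p = 0.0186). None of these overlapped between groups. The genes foxo1.S and foxo6.S entered the test only through wild type, where they were high, so they had to differ and their number is not read as a result. The call of foxo6.S was lost without NPB replicate 1 (0.0646) or wild-type replicate 2 (0.057). foxo1.L and both copies of foxo3 overlapped and did not pass, with foxo3.L at 11.2, 22.7 and 32.3 in NPB.

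In the cell-cycle and general groups, foxm1.S stood at 104, 87 and 100 scaled CPM in NPB, above 29.2, 46.9 and 48.3 in wild type (1.22, SE 0.23, adjusted p = 0.00287). It did not pass with library totals alone (0.52, adjusted p = 0.0872). foxn3.L stood at 123, 61.8 and 87.3, above 25.2, 26.3 and 25.7 (1.81, SE 0.26, adjusted p = 0.00069). Both genes were higher in every NPB library than in any wild-type library. Their other copies lay on the opposite side, lower without overlap between groups but not called. These were foxm1.L (-0.93, SE 0.43, adjusted p = 0.0991) and foxn3.S (-0.665, SE 0.275, adjusted p = 0.072). foxn2.S was lower, at 6.05, 6.37 and 7.29 against 16, 25 and 28.3 (-1.82, SE 0.29, adjusted p = 0.00122). foxn2.L, at 5.34, 5.93 and 5.01 against 8.74, 8.29 and 11.9, was near the threshold (-0.83, SE 0.29, adjusted p = 0.0373) and was lost on leaving out any 1 of the 6 libraries (0.0547 to 0.119). foxk2.L, at 18.7, 22.3 and 16.9 in NPB, overlapped with wild type and did not pass (-0.24, SE 0.24, adjusted p = 0.433), but was called lower with library totals alone (-0.93, adjusted p = 0.0128).

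The remaining calls fell on an endoderm and a cilia gene. Both entered the test only through wild type, where they were high, so they had to differ and their number is not read as a result. foxa1.L had 2, 2 and 6 counts in NPB and 18, 21 and 39 in wild type (-2.71, SE 0.61, adjusted p = 0.00604). foxj1.2.L had 1, 9 and 21 counts in NPB against 28, 50 and 108 (-2.39, SE 0.83, adjusted p = 0.0394), and this call was lost without NPB replicate 1 or 2 or wild-type replicate 2 or 3 (0.0616 to 0.133). foxj1.L and foxj1.S, which overlapped between groups, had log2 fold changes of -1.03 (SE 0.93, adjusted p = 0.384) and -1.13 (SE 0.96, adjusted p = 0.352), with NPB replicate 1 the lowest library of all 6 for both.

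**Figure D2:**
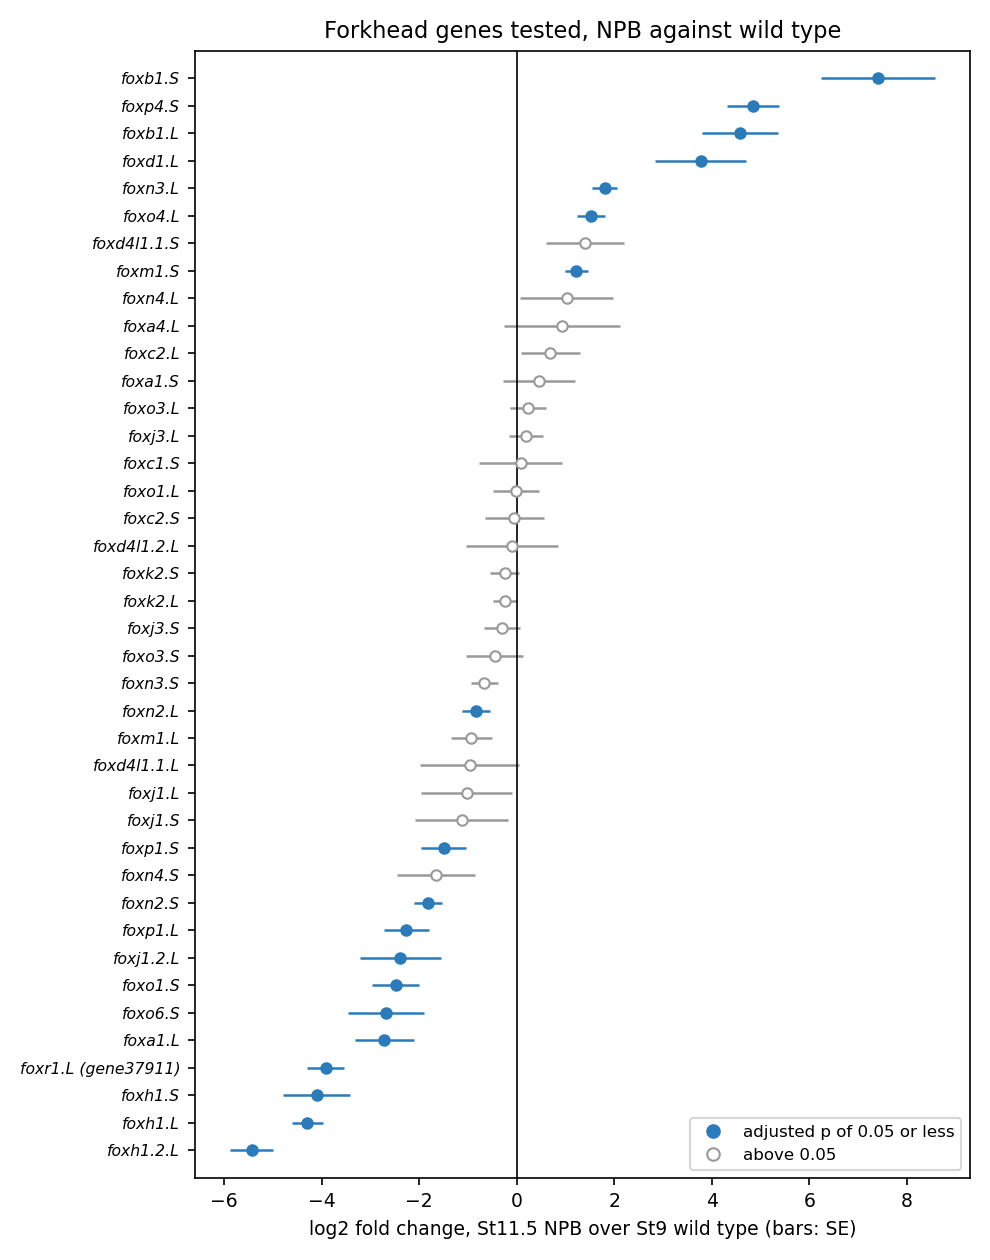
Log2 fold change (x axis, bars are SE) of 40 forkhead genes in St11.5 NPB over St9 wild type, filled where the adjusted p was 0.05 or less. foxb2.S, at 0 counts in wild type, is not drawn. The filled points on the right run from foxm1.S at 1.22 to foxb1.S at 7.41 and those on the left from foxn2.L at -0.83 to foxh1.2.L at -5.44.

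TPM, a measure corrected for transcript length and given for the NPB libraries only, allowed genes to be compared with each other. Of the 77 members, 26 had a mean of 1 TPM or more (33.8%, beside 36.7% of all genes), 7 had 10 TPM or more, and 8 were listed at 0 in all 3 libraries. Among the 26, foxn1.L stood at 1.02, 0.81 and 1.22 TPM but had only 0, 2 and 2 counts, so the 2 measures differed for it. The mean of foxa2.L came mostly from NPB replicate 1 (6.3 TPM, against 1.07 and 0.12). The highest were foxb1.L at 37.5 ± 17.4 TPM, foxn3.L at 31.1 ± 6.53, foxd4l1.1.S at 30.1 ± 23.6, foxb1.S at 29.8 ± 22.7 and foxp4.S at 26 ± 16.1 (SD, n = 3 each). The SDs of these 5 overlapped with each other. They were followed by foxd4l1.1.L at 16.6 ± 14.1, foxm1.S at 15.3 ± 1.39, foxo4.L at 9.33 ± 2.06, foxd4l1.2.L at 8.4 ± 8.46 and foxb2.S at 6.19 ± 6.14, and the SDs of neighbours in this order overlapped except between foxm1.S and foxo4.L.

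The libraries divided the 10 genes. NPB replicate 1 held 17.3 TPM of foxb1.L, 3.67 of foxb1.S and 3.17 of foxd4l1.1.S, against 39.5 to 47.5 TPM of each in the other NPB libraries. For foxd4l1.1.L, foxd4l1.2.L and foxb2.S it held 0.42, 0.54 and 0.61 TPM. foxn3.L at 37.5 TPM and foxp4.S at 44.6 TPM were instead highest there. Summed over the 77 members, the 3 libraries held 179.6, 299.0 and 315.8 TPM.

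**Figure D3:**
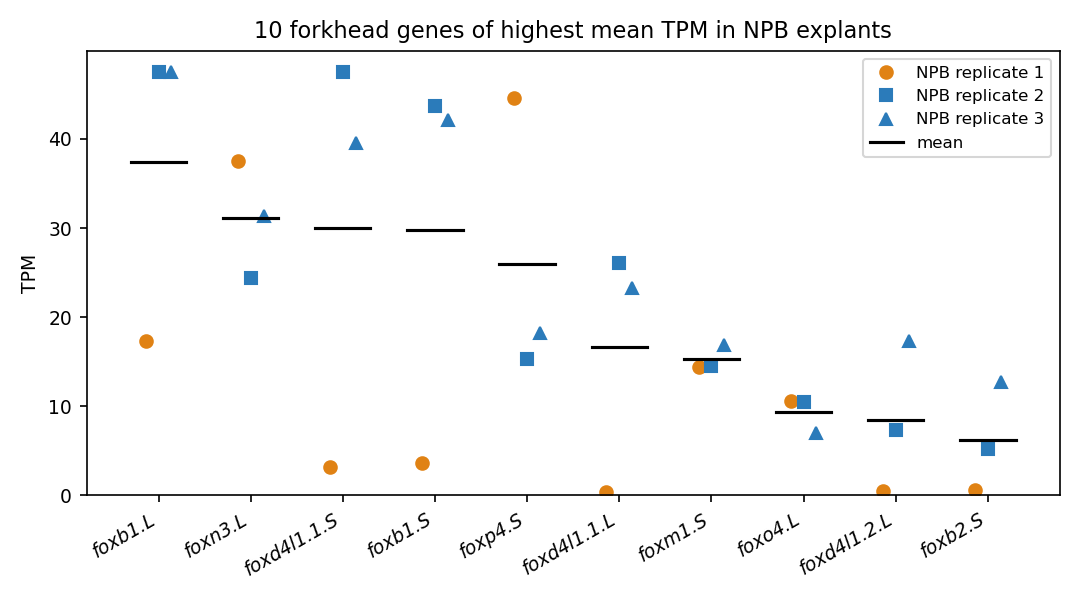
TPM of the 10 forkhead genes of highest mean in NPB explants, for replicate 1 (orange circles), replicate 2 (blue squares) and replicate 3 (blue triangles), with the mean as a bar. Replicate 1 lies below the other libraries for the foxb and foxd4l1 genes and above them for foxn3.L and foxp4.S.

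The L and S copies of a gene come from the same libraries, so their responses were compared within each library for the 15 pairs with both copies above the filter. In morphants against wild type, limma without a block called 0 of the 15 (0% of all 5282 pairs), and the paired fit called 3 (15.2% of all pairs). Without the block 2 pairs were at an unadjusted p under 0.05. No share of all pairs was set beside that number, so it is not read as a result. The share of foxj1.L in the foxj1 counts was 70.2%, 61.8% and 66% in wild type and 46.3%, 42% and 46% in morphants, a change of L relative to S of -1.24 on the log2 scale (SE 0.19, adjusted p = 0.000769 in the paired fit). The groups did not overlap. For foxd4l1.1 the L share went from 67.6%, 61.8% and 80.2% to 82.9%, 70.5% and 88.1% (0.86, SE 0.14, adjusted p = 0.00136), and for foxa1 from 29.5%, 63.6% and 66.1% to 69.8%, 89.2% and 94.7% of 33 to 94 counts (2.29, SE 0.45, adjusted p = 0.00425). Both rose in 3 of 3 pairs of libraries. The copy foxa1.S passed the count filter only through wild type, where it was high, so the call of the foxa1 pair is not read as a result.

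In NPB against wild type, 7 of the 15 pairs were called (39.1% of all 5336 pairs). foxn3 turned further to L, at 96.2%, 91.9% and 93.5% in NPB against 72.9%, 78% and 73.8% (2.42, SE 0.34, adjusted p = 0.00141). foxm1 turned to S, with the L share at 1.39%, 2.51% and 2.83% against 9.34%, 8.29% and 9.98% (-2.18, SE 0.33, adjusted p = 0.00192). In both pairs the more abundant copy in counts was the same in the 2 groups. For foxd4l1.1 the larger copy in counts changed, from 67.6%, 61.8% and 80.2% L in wild type to 10.1%, 31.4% and 33.2% in NPB (-2.97, SE 0.58, adjusted p = 0.00567), and for foxo1 it changed from 40.6%, 37% and 33.1% to 71.4%, 82.5% and 71.7% (2.21, SE 0.55, adjusted p = 0.015). These shares did not overlap between groups. The other calls were foxb1 (-2.09, adjusted p = 0.0242), foxn2 (0.96, adjusted p = 0.0432) and foxa1 (-2.67, adjusted p = 0.0452), all from limma. Counts in NPB were low for foxa1 (20, 46 and 26 for the pair, with 2, 2 and 6 for foxa1.L) and for foxo1 (28, 40 and 46 for the pair). The copies foxa1.L and foxo1.S passed the count filter only through wild type, and foxb1.S only through NPB. These were the groups where they were high, so the calls of the foxa1, foxo1 and foxb1 pairs are not read as a result. The count of called pairs was 3 without NPB replicate 2 and 4 without wild-type replicate 2 or 3.

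**Figure D4:**
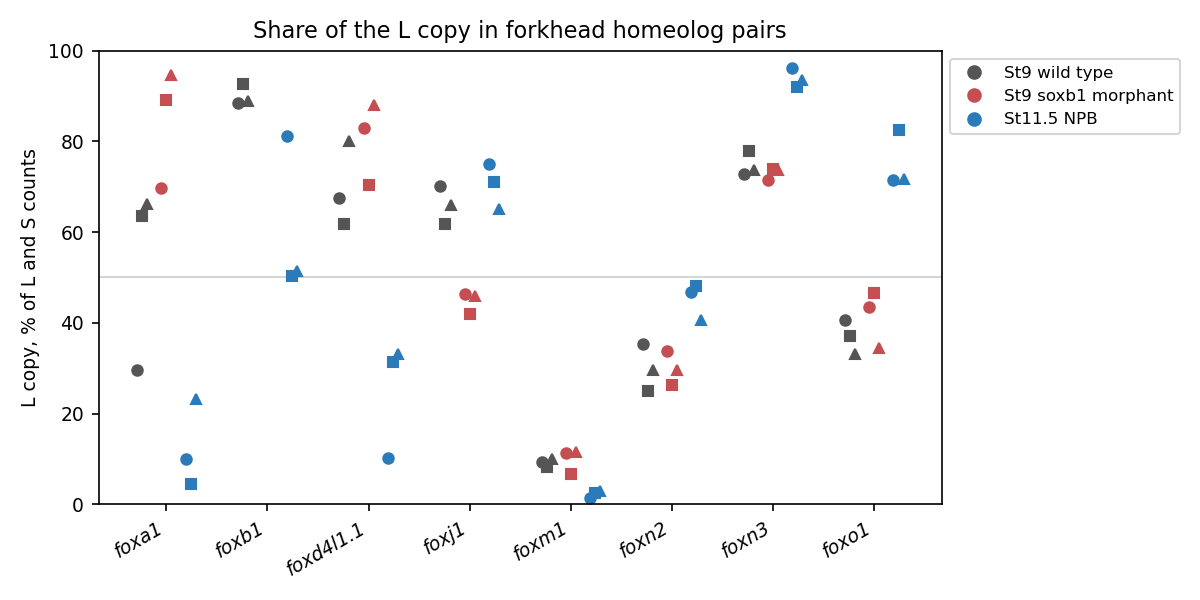
Share of the L copy among L and S counts (y axis, %) of 8 forkhead homeolog pairs in St9 wild type (grey), St9 soxb1 morphant (red) and St11.5 NPB (blue), with replicates 1, 2 and 3 as circles, squares and triangles. The foxb1 pair is not drawn in morphants, where it had 13, 4 and 3 counts. The foxj1 share is below 50% only in the 3 morphant libraries, and the foxd4l1.1 share only in the 3 NPB libraries.

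Genes that act with the forkhead factors were counted from lists made by name, to be read beside the 5.75% of all genes called higher and 6.71% lower in the paired fit and the 26.9% and 26.7% in NPB. Of the Foxd4l1 neural partners, such as irx genes, 6 of 16 tested were lower and 0 higher in morphants in the paired edgeR fit (median log2 fold change -0.30, beside 0.005 over all genes), and 14 of 18 were higher and 0 lower in NPB (median 4.199, beside -0.04). The Iroquois factors of the neural plate irx2.S (-2.55, SE 0.41, adjusted p = 0.000796) and irx1.S (-1.15, SE 0.08, adjusted p = 3.06e-07) were among the former. In NPB, their relative irx3.S (9.11, SE 0.29, adjusted p = 8.07e-06) and the neural adhesion gene ncam1.L (8.55, SE 1.09, adjusted p = 0.000572) were among the latter. Both passed the count filter there only through NPB (wild-type means 0.29 and 0.073 CPM). irx2.S passed at stage 9 only through wild type (morphant mean 0.316 CPM). These were the groups where they were high, so they had to differ. The same held for other genes of the lists and marker lists, so list counts and medians do not stand for whole lists. Without the block, edgeR and limma-voom called 0 genes of this list or of the lists that follow in the morphant comparison. At an unadjusted edgeR p under 0.05 there were 8 of the 16 Foxd4l1 partners and between 0 and 4 genes of each other list, and DESeq2 called 6 Foxd4l1 partners and between 0 and 2 genes of each other list.

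Of the Foxa partners in endoderm, 6 of 9 tested were higher and 0 lower in morphants (median 0.77), among them the endoderm factor sox17b.1.S (2.48, SE 0.19, adjusted p = 8.25e-07), and 2 of 11 were higher and 7 lower in NPB (median -2.93). The maternal T-box gene vegt.L fell by 4.52 in NPB (SE 0.70, adjusted p = 0.00134). In the axial mesoderm list 0 of 7 were higher and 1 lower in morphants (median -0.08), and 1 was higher and 1 lower in NPB (median -0.26), the former being chrd.1.S, of the gene family whose mRNA the labels name as injected. Of the Foxh1 pathway genes, 3 of 18 were higher and 2 lower in morphants (median 0.08). The T-box factors eomes.L (-1.37, SE 0.24, adjusted p = 0.00128) and tbxt.S (1.67, SE 0.30, adjusted p = 0.00129) lay on opposite sides. In NPB, 3 of 16 were higher and 9 lower (median -1.16), with the Nodal target mix1.L at -4.87 (SE 0.78, adjusted p = 0.00121). mix1.L passed the count filter only through wild type, where it was high (NPB mean 0.05 CPM), so it had to differ.

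In morphants 2 of 12 multiciliated cell genes were higher and 1 lower (median -0.04), with the multiciliation regulator gmnc.L lower (-1.83, SE 0.37, adjusted p = 0.0038) and rfx2.S, a transcription factor that works with Foxj1, higher (0.44, SE 0.08, adjusted p = 0.00257). The gene gmnc.L passed the count filter only through wild type, where it was high, so it had to differ. In NPB 3 of 16 multiciliated cell genes were higher and 4 lower (median -0.10). Of the Foxo regulators and targets, 4 of 24 were higher and 0 lower in morphants (median 0.02), the stress-response gene sesn1.S among them (1.54, SE 0.24, adjusted p = 0.00298), and 4 were higher and 7 lower in NPB (median -0.25). Of the mitotic genes listed as Foxm1 targets, 3 of 20 were higher and 2 lower in morphants (median -0.06), and 4 were higher and 8 lower in NPB (median -0.26). The cyclin gene ccnb1.L fell by 5.49 in NPB (SE 0.62, adjusted p = 0.000359) and the kinase gene aurkb.L rose by 2.27 (SE 0.18, adjusted p = 5.97e-05), beside the rise of foxm1.S.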

How the data were processed

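RNA was sequenced (single-end reads, directional kit) from 3 St9 wild-type, 3 St9 soxb1 morphant and 3 St11.5 NPB libraries, grouped by their titles. The authors used fastp for trimming, STAR for alignment (X. laevis genome 9.2) and HTSeq for the deposited counts per gene, which were not normalized. TPM were deposited by the authors for NPB only, calculated with RSEM. CPM were computed here from the counts, by library total for marker sums and by TMM over the 9 libraries for members. No column belonged to another sample (0). Tool versions and the strand setting of the counting are not given in the sources used here, so antisense reads may be included. Reads shared by homeologs or near copies (foxd4l1, foxh1, foxj1, foxj2.L, foxr1.L) could have been divided between them, so these are uncertain. The deposited DESeq2 comparison of the authors (mean, fold change, SE, statistic, p) was not used.

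Counts were tested with edgeR 4.0.16 (robust quasi-likelihood F test, filterByExpr, TMM, no covariate) in R 4.3.3, adjusted over every gene tested by the Benjamini-Hochberg method. The SE, an approximation, was obtained by dividing the size of the log2 fold change by the root of F. L and S copies were compared with limma 3.58.1 (trend, robust) on log2 CPM, prior count 2. DESeq2 1.42.0 and limma-voom were alternatives, with other scaling, filters, thresholds and left-out libraries. Deviations from group means correlated at 0.868, 0.855 and 0.855 across genes for same-numbered libraries at St9. The numbers were therefore taken to pair them, although no label tells what a number stands for. Different numbers correlated at -0.378 or less. Subtracting the group mean makes these values negative once same-numbered libraries correlate highly, so they add nothing to the pairing. Libraries of a group differed beyond counting noise (chi-square per gene 41.2 to 99.9). The scripts were tested on simulated data.

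The members and lists were chosen with earlier results of these data known. Values in every library were given for members called in either fit, the 10 of highest CPM in wild type and the 10 of highest TPM, and other genes were named from the lists, up to 4 called ones of largest change for each list and comparison. No sequences are printed. Some genes that the rule would name are not reported here.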

Additional observations from a re-analysis of the deposited data

How the results depend on the processing

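At stage 9, edgeR called 3 members higher and 5 lower with the replicate block and 0 without it, and DESeq2 without it called 1 higher and 3 lower, all 4 among those 8. Within the paired fit, the count of lower members was 3 with at least 10 counts in every library and 3 with L and S counts summed, and leaving out a pair gave 2 to 4 higher and 4 to 5 lower. In NPB against wild type, 5 members in place of 8 were higher with at least 10 counts in every library, and 7 in place of 12 were lower with L and S counts summed. Both of these settings also change which genes can be tested. Leaving out 1 library gave 9 to 11 higher and 8 to 13 lower. NPB and wild-type numbers did not pair (correlations -0.057, -0.011 and -0.056), and the replicate block gave 8 higher and 10 lower, ending the calls of foxn2.L (0.0856) and foxo6.S (0.0505). For homeolog pairs at stage 9 the replicate block moved the count from 0 to 3. In NPB it was 4 in place of 7 with at least 10 counts of both copies in every library and 3 to 6 with 1 library left out. Of the 77 members, 17 rather than 26 were at 1 TPM or more when every library had to pass. Leaving out a library gave 26 to 29. For the left-out libraries, changed filters and summed copies, no share of all genes or pairs was set beside the counts. These counts are therefore not read as results about the members. The cause of these changes was not tested otherwise. Of the log2 fold changes of named members under all alternatives, 737 stayed on the same side of the threshold, 22 lost a call, 15 gained one and 0 reversed. A count near the floor, as for foxb1.S and foxb2.S at stage 9, limits what could be detected. The tests compare 3 libraries with 3, and the other 4 stage 9 calls were made in paired fits only.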
